A study of Mus musculus with 52 samples.

Results

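Antibody genes were followed through the treatment of tumor-bearing mice: the 8 mouse heavy chain constant genes Ighm, Ighd, Ighg1, Ighg2b, Ighg2c, Ighg3, Igha and Ighe, the kappa light chain constant gene Igkc and the J chain gene Jchain. These 10 genes were picked by symbol from a table of 57010 genes, and each symbol matched 1 gene of the GENCODE vM21 annotation of GRCm38. RNA was sequenced from hCD40tg mice, which carry a human CD40 transgene, inoculated with tumors of the MC38-CEACAM5 line, a mouse colon carcinoma that bears the human tumor antigen CEACAM5. The mice received ATOR-4066, which binds both CD40 and CEACAM5, or CD40 mAb, which binds CD40 alone, or vehicle. All groups share the transgene and the tumor, and the sources used here do not give dose, time after treatment or age. The libraries used came from 4 materials: lymph node (5 ATOR-4066, 4 CD40 mAb, 4 vehicle), whole tumor (4, 5 and 4 in that order), CD45+Ly6G- cells sorted from tumors (3, 3 and 4) and blood (4, 5 and 5).

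A B cell first makes IgM and IgD, which share the rearranged variable part and differ in the constant part of the heavy chain. In class switch recombination the DNA between the Ighm switch region and that of a downstream constant gene is removed, so that the same variable part is joined to an IgG, IgE or IgA constant part. CD40 on B cells is the receptor through which helper T cells give the signal for switching, and cytokines steer the class: in mice, IL-4 favors IgG1 and IgE, interferon-gamma favors IgG2c, and TGF-beta favors IgA and IgG2b. Plasma cells then raise the RNA of the secreted heavy chain, the light chain and the J chain, which joins IgM and IgA into polymers. A constant gene's count holds membrane and secreted forms and the unrearranged transcripts made before switching, which these values do not separate. In bulk RNA, fewer cells of a type and less RNA per cell cannot be told apart.

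The heavy chain genes lie on chromosome 12 of GRCm38, minus strand, and in transcriptional order they are Ighm (113418558 to 113422730), Ighd (113406604 to 113416324), Ighg3 (113356224 to 113361232), Ighg1 (113325240 to 113330523), Ighg2b (113302965 to 113307933), Ighg2c (113285325 to 113288932), Ighe (113269260 to 113273248) and Igha (113254830 to 113260236). Igkc is on chromosome 6 (70726435 to 70726966, plus strand) and Jchain on chromosome 5 (88519809 to 88527891, minus strand). The 4 IgG genes resemble each other, so the exon that sets them apart most plainly, the hinge exon (exon 2), is printed here from GENCODE vM21, 5′ to 3′ on the coding strand. Capitals mark the in-frame cysteine codons, which form the bonds between the heavy chains.
Ighg3, chr12:113360529-113360576: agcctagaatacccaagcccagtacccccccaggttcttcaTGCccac
Ighg1, chr12:113329844-113329882: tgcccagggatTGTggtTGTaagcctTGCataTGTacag
Ighg2b, chr12:113307261-113307326: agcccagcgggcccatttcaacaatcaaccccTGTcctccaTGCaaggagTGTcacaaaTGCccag
Ighg2c, chr12:113288263-113288325: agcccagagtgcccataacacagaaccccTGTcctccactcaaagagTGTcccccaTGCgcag

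The hinge exon has 48 bases and 1 cysteine codon in Ighg3, 39 bases and 4 in Ighg1, 66 bases and 4 in Ighg2b, and 63 bases and 3 in Ighg2c. Outside the hinge the genes are much closer. Over the 330 bases of the exon after the hinge, Ighg2b and Ighg2c were 94.2 percent identical, and over the 291 bases of the first exon the 6 pairs were 78.4 to 88.3 percent identical. Of the 31-base words of its transcripts, Ighg2c shared 14.98 percent with the other IgG genes, Ighg2b 9.29 percent, Ighg3 3.63 percent and Ighg1 1.72 percent. Ighm, Igha, Ighe, Igkc and Jchain shared none with any other gene of the annotation. Reads in shared stretches can be split between IgG genes by the authors' counting, so the levels of Ighg2b and Ighg2c are the least certain.

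Total counts per library were 46.3 to 138.5 M in lymph node, with ATOR-4066 5 the deepest, 47.4 to 64.2 M in tumor, 30.2 to 47.4 M in sorted cells and 33.5 to 44.1 M in blood. Of the blood counts, 69.8 to 88.2 percent came from haemoglobin genes. A pair of libraries went against their labels and were left out. The library labelled lymph node vehicle 3 had 0.00317 percent of its counts in immunoglobulin genes, against 0.714 to 3.30 percent in the other vehicle lymph nodes. The one labelled tumor ATOR-4066 3 had 4.80 percent, against 0.00985 to 0.0425 percent in the other ATOR-4066 tumors. Immunoglobulin genes here are the constant genes and the variable, diversity and joining segments of the heavy and light chains, without Jchain. Levels are given as CPM, counts scaled to library size after TMM normalization, and changes as log2 changes from edgeR with their standard error (SE). In blood the TMM-scaled library sizes differed by treatment. They were 58605500 to 93858900 in vehicle, 12084800 to 32880800 in CD40 mAb and 21816600 to 46877200 in ATOR-4066 libraries. The size of the blood changes therefore depends on the scaling. Called means an adjusted p under 0.05 over all genes of a comparison. Nothing says that libraries of a group are more than separate samples, so p-values measure the spread between these libraries. The comparisons with vehicle share the vehicle libraries, and those between the antibodies share the treated ones.

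Lymph node held the largest antibody signal, with 0.714 to 8.38 percent of counts in immunoglobulin genes. Per kilobase of exon, Igkc had the highest median level, 16710.2 CPM per kb, above the next gene in 13 of 13 libraries. It was followed by Ighg2c (2358), Ighg1 (1820.1), Ighm (1318), Ighg2b (817), Jchain (621), Ighd (361), Ighg3 (75.5), Ighe (62.9) and Igha (52.8 CPM per kb). Neighbours in the middle of this order were not separated: Ighg2c exceeded Ighg1 in 7 of 13 libraries, Ighg2b exceeded Jchain in 8 and Ighg3 exceeded Ighe in 6. The annotated exon length of Ighg2c, 1.33 kb, is shorter than the 2.51 to 2.68 kb of the other IgG genes, which raises its value on this scale. All 10 genes passed the filter on low counts in lymph node.

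Ighm, the IgM heavy chain, stood higher in lymph nodes of CD40 mAb mice than in both other groups. It had 5769.5, 4718, 4655 and 2555 CPM in the CD40 mAb lymph nodes, against 1473, 2487, 2524 and 2138 CPM in the vehicle ones. The 4 CD40 mAb values all lay above the highest vehicle value, CD40 mAb 5 by a small margin. The log2 change was 1.04 ± 0.21 (SE), and the edgeR adjusted p of 0.0540 did not pass. The same comparison gave an adjusted p of 0.000241 with DESeq2, 0.0271 with limma voom, 0.246 with libraries scaled to B cell markers and 0.0276 without CD40 mAb 5; with the left out vehicle library it was 0.366. In the ATOR-4066 lymph nodes Ighm had 2393, 2463, 2338, 2519 and 2210.1 CPM, a span of 1.14-fold and the tightest of any gene of the set in lymph node. All 5 ATOR-4066 values lay below all CD40 mAb values. The log2 change of ATOR-4066 against CD40 mAb was -0.89 ± 0.20 (edgeR adjusted p = 0.226).

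**Figure D1:**
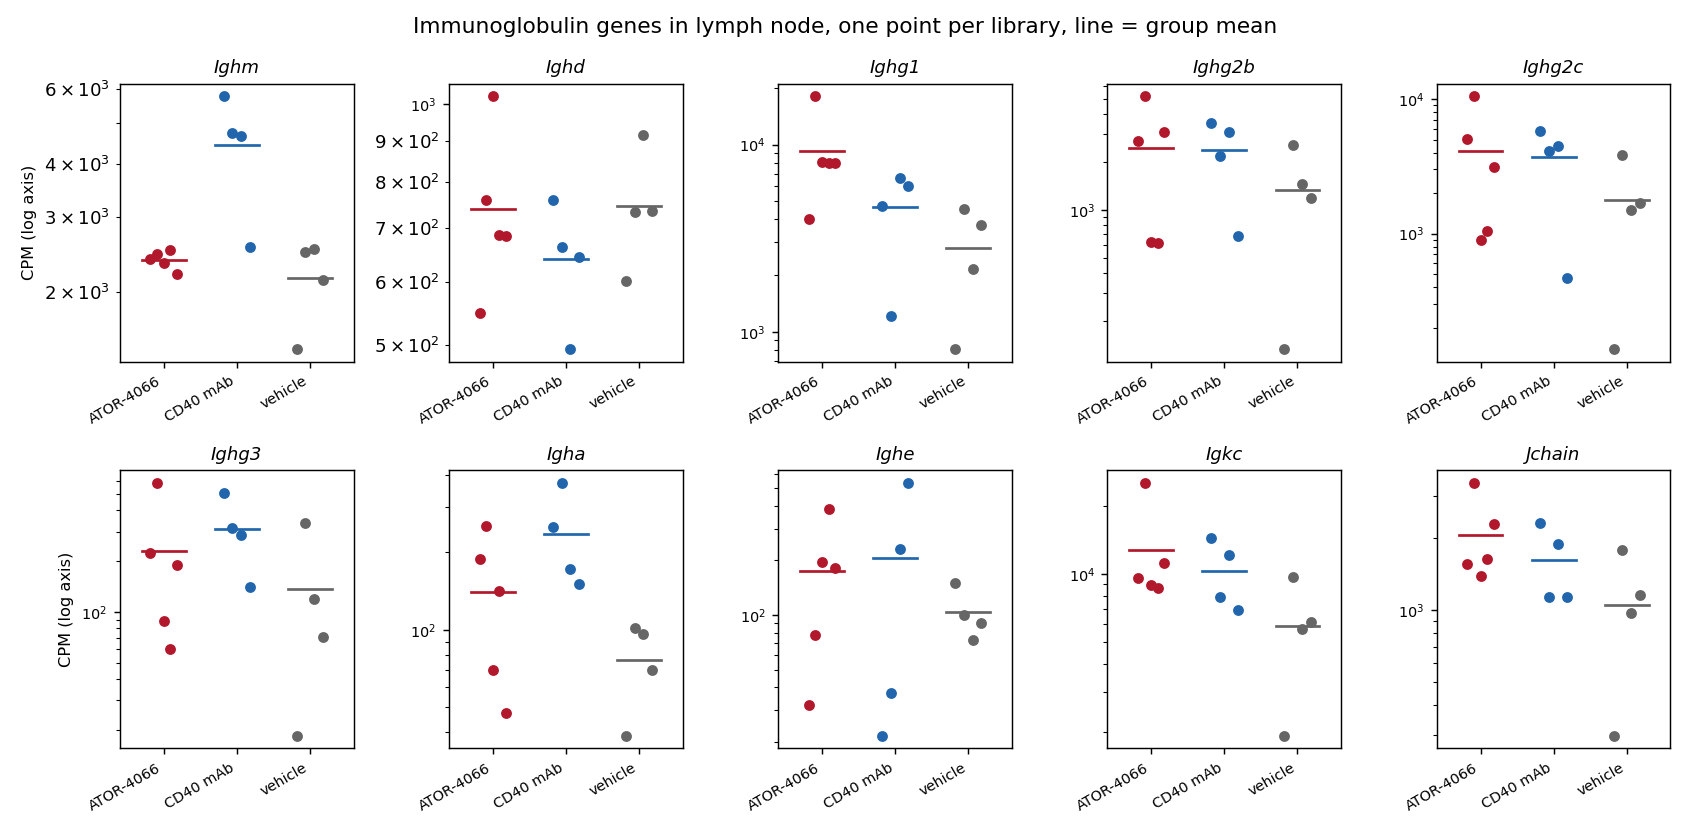
Level of each of the 10 genes in every lymph node library used (CPM, log axis, 1 panel a gene, the ranges of the axes differ), by treatment, with the group mean as a line. Ighm of the CD40 mAb lymph nodes, 2555 to 5769.5 CPM, lies above both other groups, while the points of most IgG genes spread widely within each treatment.

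Of the 10 genes, 0 were called in ATOR-4066 against vehicle in lymph node, where edgeR called 0 percent of 18671 genes. Unadjusted, 2 of the 10 and 2954 of all genes had p under 0.05, and DESeq2 called 1 of the 10 (Ighg1) and 503 of all genes. In CD40 mAb against vehicle 0 were called (2 unadjusted, 2 with DESeq2, 1 with limma voom), beside 0.0643 percent of all genes (4409 of 18671 unadjusted). For ATOR-4066 against CD40 mAb the count was 0 as well (1 unadjusted, 1 with DESeq2, 0 with limma voom), beside 0.0161 percent of all genes (1740 unadjusted).

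IgD did not follow IgM. Ighd, whose transcript starts at the same promoter as Ighm and is kept mainly by unswitched B cells, had 549, 760.0, 1024, 686 and 684 CPM in the ATOR-4066 lymph nodes. It had 760.1, 662, 494 and 644 CPM in the CD40 mAb ones and 601, 733, 915 and 735 CPM in the vehicle ones, so all 3 groups overlapped. The log2 change of CD40 mAb against vehicle was -0.22 ± 0.19 (edgeR adjusted p = 0.473), and it became 0.13 with the left out library. Counted per 100 Ighm counts, Ighd had 22.9 to 43.8 counts in ATOR-4066, 10.6 to 25.2 in CD40 mAb and 29.5 to 40.8 in vehicle lymph nodes, so that CD40 mAb and vehicle did not overlap. Counted per count of Cd79a, the signaling chain of the B cell receptor, Ighd was at 0.871 to 1.02 in ATOR-4066, 0.761 to 0.856 in CD40 mAb and 0.886 to 0.917 in vehicle lymph nodes, so CD40 mAb lay below both other groups by a small margin. Ighm counts per Cd79a count were 2.28 to 3.92 in ATOR-4066, 3.19 to 7.70 in CD40 mAb and 2.17 to 3.05 in vehicle lymph nodes.

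The B cell content itself did not separate the groups. The 15 B cell markers summed to 3332 to 6172 CPM in ATOR-4066, 3782 to 5211 CPM in CD40 mAb and 3560 to 5807 CPM in vehicle lymph nodes, and 0 of 15 were called against vehicle with either antibody. Their median log2 change was -0.05 for ATOR-4066 and 0.00 for CD40 mAb, beside -0.01 and -0.02 over all genes. A positive change was seen in 4 of 15 with ATOR-4066 and in 8 of 15 with CD40 mAb. Of the list, Cd72, an inhibitory coreceptor, was at 87.2 ± 15.3 CPM in ATOR-4066 and 102 ± 19.3 CPM in vehicle lymph nodes (SD, n = 5 and 4). Fcer2a, the low affinity IgE receptor CD23, was at 237 ± 73.8 CPM in CD40 mAb and 303 ± 62.1 CPM in vehicle lymph nodes (SD, n = 4 each). Genes of muscle, skin and fat differed between these libraries: their sum was 6.26 to 1097 CPM in ATOR-4066, 57.9 to 819 CPM in CD40 mAb and 846 to 2467 CPM in vehicle lymph nodes. Of the 9 tested, 9 were lower on average with each antibody than with vehicle, 0 of them called. Neutrophil markers summed to 44.6 to 83.8 CPM in ATOR-4066, 42.0 to 211 CPM in CD40 mAb and 47.99 to 91.9 CPM in vehicle lymph nodes, and 7 of 7 were higher on average with CD40 mAb, 0 of them called. Tumor epithelial markers were lower on average in 8 of 8 with each antibody (median log2 change -1.22 with ATOR-4066 and -1.70 with CD40 mAb). With ATOR-4066, 6 of 6 erythroid genes (median -1.96) and 10 of 10 myeloid markers (-0.37) were lower on average, and with CD40 mAb 12 of 12 T cell markers (-0.16), 0 of any of these lists called. The part of these lists in the antibody gene values was not tested.

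IgG1 was the class with the highest counts in 4 of the 5 ATOR-4066 lymph nodes, and IgG2c in ATOR-4066 1. Ighg1 had 3999, 18124, 8096, 7999 and 8017 CPM there, against 810.3, 4505, 2171 and 3730.45 CPM in vehicle lymph nodes. Of the 5 ATOR-4066 values 4 lay above every vehicle value, and ATOR-4066 1 lay among them. The log2 change was 1.72 ± 0.61 (SE), with an edgeR adjusted p of 0.241 that ran from 0.0494 with DESeq2 to 0.944 over the alternatives. In CD40 mAb lymph nodes Ighg1 was at 4718, 1222, 6630.2 and 6032 CPM, of which 3 lay above every vehicle value (log2 change 0.73 ± 0.61, edgeR adjusted p = 0.475). ATOR-4066 against CD40 mAb gave 0.99 ± 0.59 (edgeR adjusted p = 0.650).

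IgG2b and IgG2c varied widely between libraries of the same treatment. Ighg2c had 5060.4, 10486, 897, 1044 and 3127 CPM in ATOR-4066, 5811, 4144, 4451 and 464 CPM in CD40 mAb, and 139.1, 3833, 1493 and 1696 CPM in vehicle lymph nodes. Within a treatment the highest library stood 11.7-fold above the lowest in ATOR-4066, 12.5-fold in CD40 mAb and 27.5-fold in vehicle. Ighg2b followed the same libraries, with 2703, 5200.4, 625, 619 and 3098 CPM in ATOR-4066, 3543, 2188, 3096 and 684 CPM in CD40 mAb and 133, 2563, 1447 and 1193 CPM in vehicle lymph nodes. The log2 changes against vehicle that exceeded their SE were 0.88 ± 0.83 for Ighg2b with ATOR-4066, 1.20 ± 0.98 for Ighg2c with ATOR-4066 and 1.05 ± 1.01 for Ighg2c with CD40 mAb (edgeR adjusted p = 0.616, 0.550 and 0.533). Ighg3, the first IgG gene of the locus, was lowest of the 4 at 60.2 to 582 CPM in ATOR-4066, 141 to 505 CPM in CD40 mAb and 18.5 to 335 CPM in vehicle lymph nodes.

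Ighe, the IgE heavy chain, took its largest shares of heavy chain counts where IgG2c took its smallest. It had 31.9, 77.3, 197, 383 and 181 CPM in ATOR-4066, 21.6, 37.2, 231 and 535 CPM in CD40 mAb and 151, 99.7, 73.1 and 90.8 CPM in vehicle lymph nodes, in the same library order as Ighg2c above. ATOR-4066 3 and 4, CD40 mAb 5 and vehicle 1 had the 4 lowest Ighg2c levels of the 13, and all 3 treatments are among them. In those 4, Ighe held 1.48 to 4.77 percent of heavy chain counts and Ighg2c 4.14 to 7.77 percent. In the other 9, Ighe held 0.101 to 1.15 percent and Ighg2c 16.9 to 33.4 percent. The log2 change of Ighe in CD40 mAb against vehicle, 0.99 ± 0.93 (SE), became -0.10 without CD40 mAb 5.

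IgA stood higher in level in the CD40 mAb lymph nodes than in the vehicle ones. Igha had 252, 371, 172 and 151 CPM there, against 38.8, 102, 96.0 and 69.5 CPM in vehicle lymph nodes, with no overlap. The log2 change was 1.63 ± 0.52 (SE) and the edgeR adjusted p of 0.110 did not pass, against 0.0200 with DESeq2 (range over the alternatives 0.0200 to 0.421). ATOR-4066 lymph nodes had 188, 253, 70.1, 141 and 47.7 CPM of Igha and overlapped both other groups (log2 change 0.87 ± 0.49 against vehicle and -0.76 ± 0.47 against CD40 mAb, edgeR adjusted p = 0.392 and 0.666). The Igha share of heavy chain counts was 0.860 to 2.72 percent in CD40 mAb and 0.695 to 1.15 percent in vehicle lymph nodes. These ranges overlapped (exact permutation test over libraries, p = 0.143, adjusted p = 0.423).

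The kappa light chain and the J chain were higher on average with both antibodies, within the spread of the libraries. Igkc had 9621, 25213, 8889.8, 8706 and 11149 CPM in ATOR-4066, 14392, 7922, 12135 and 6913 CPM in CD40 mAb, and 1928, 9649.9, 5726 and 6158 CPM in vehicle lymph nodes. ATOR-4066 2 was the highest and vehicle 1 the lowest, and 2 libraries of each antibody exceeded all vehicle ones. The log2 changes against vehicle were 1.12 ± 0.46 with ATOR-4066 and 0.82 ± 0.47 with CD40 mAb (edgeR adjusted p = 0.282 and 0.305). Jchain, at 1394 to 3399.6 CPM in ATOR-4066, 1129 to 2321 CPM in CD40 mAb and 298 to 1779 CPM in vehicle lymph nodes, gave 0.97 ± 0.45 and 0.63 ± 0.47 (edgeR adjusted p = 0.321 and 0.418). Jchain kept close to Igkc in every lymph node, at 13.5 to 20.5 Jchain counts per 100 Igkc counts. Lambda constant genes held 2.73 to 6.62 percent of light chain counts in ATOR-4066, 3.77 to 6.41 percent in CD40 mAb and 6.30 to 15.8 percent in vehicle lymph nodes.

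As shares of all heavy chain counts, the switched classes (IgG, IgA and IgE together) held 80.6, 91.5, 74.8, 76.2 and 83.5 percent in ATOR-4066 lymph nodes. They held 69.5, 60.6, 74.3 and 71.5 percent in CD40 mAb and 38.3, 78.0, 61.1 and 70.5 percent in vehicle lymph nodes. All 5 ATOR-4066 libraries lay above all CD40 mAb ones, by a small margin (74.8 against 74.3 percent), and vehicle overlapped both. With counts taken per kilobase of exon, ATOR-4066 and CD40 mAb overlapped. ATOR-4066 3 and 4 were then at 70.3 and 72.3 percent and CD40 mAb 4 at 73.0 percent. The means differed by 19.3 points for ATOR-4066 against vehicle and by 6.96 points for CD40 mAb against vehicle. Without vehicle 1 the differences were 11.5 and -0.91 points, so that of CD40 mAb rested on this library and that of ATOR-4066 shrank. IgG1 alone held 26.4 to 60.7 percent in ATOR-4066, 8.94 to 53.8 percent in CD40 mAb and 24.1 to 38.4 percent in vehicle lymph nodes. Each share rests on 166685 to 2448020 heavy chain counts, and the widest 95 percent Wilson interval of any share was ± 0.238 points, for counting error only.

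**Figure D2:**
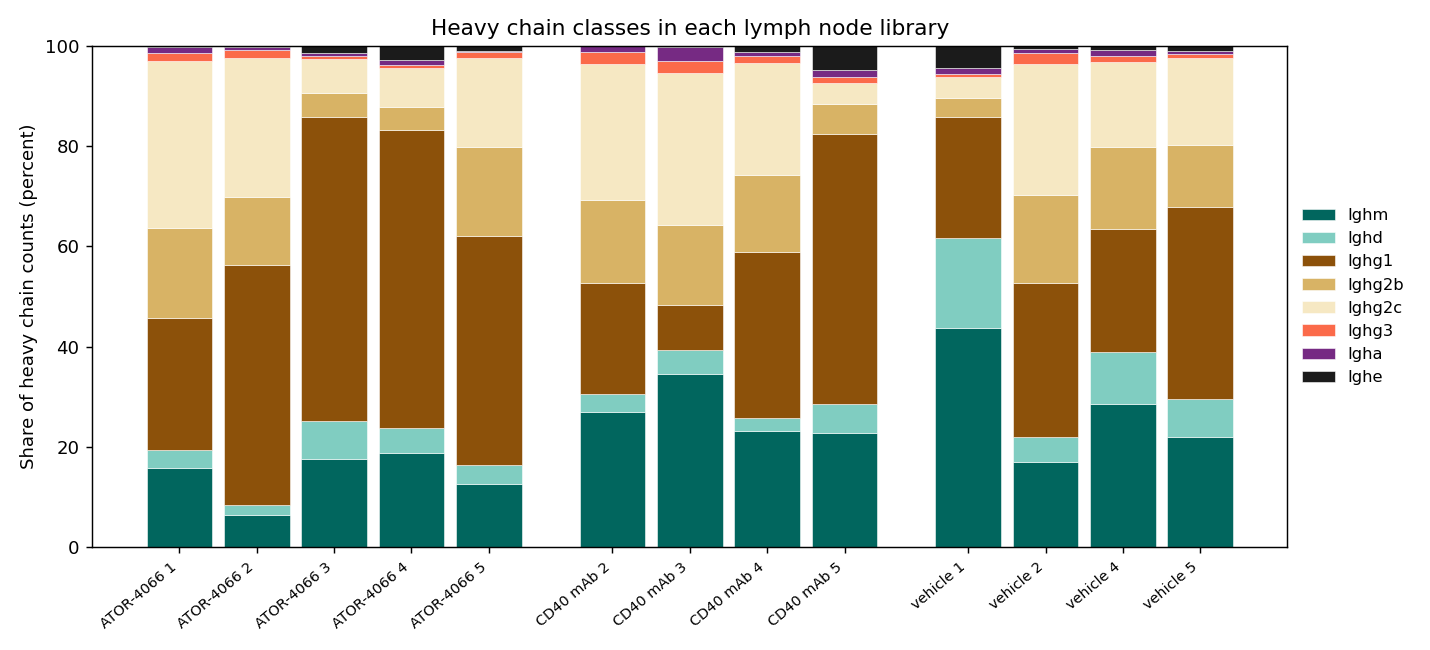
Share of heavy chain counts (percent, stacked to 100) held by each of the 8 heavy chain genes in the 13 lymph node libraries used, by treatment and replicate number. The dark green Ighm share runs from 6.49 to 18.7 percent in ATOR-4066, from 22.8 to 34.5 percent in CD40 mAb and from 17.0 to 43.8 percent in vehicle lymph nodes.

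Each of the 8 classes was compared between treatments by an exact permutation test over libraries, two-sided, 24 tests a material with Benjamini-Hochberg adjustment. In lymph node 0 of 24 passed and 3 had an unadjusted p under 0.05. The Ighm share was 14.2 ± 4.90 percent in ATOR-4066 and 26.9 ± 5.43 percent in CD40 mAb lymph nodes (SD, n = 5 and 4), without overlap. Its exact p of 0.0159 is the smallest this design can give, and the adjusted p was 0.327. Against vehicle, the ATOR-4066 share of Ighm was 14.2 ± 4.90 percent against 27.8 ± 11.6 percent, and that of Ighg1 was 48.002 ± 13.8 percent against 29.4 ± 6.68 percent (SD, n = 5 and 4). Both had an exact p of 0.0476 and an adjusted p of 0.327.

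None of the genes around class switching was called in lymph node by edgeR. Of 26 genes of the switch machinery 0 were called against vehicle with either antibody. Their median log2 change was 0.06 with ATOR-4066 and 0.16 with CD40 mAb, and 18 and 22 of 26 had a positive one. Batf, a transcription factor needed for class switching, was at 38.9 ± 8.19 CPM in ATOR-4066 and 30.04 ± 1.64 CPM in vehicle lymph nodes (SD, n = 5 and 4). Ung, a glycosylase that removes uracil from DNA, was at 28.2 ± 5.47 CPM in CD40 mAb and 18.8 ± 2.98 CPM in vehicle lymph nodes, with no overlap (log2 change 0.58 ± 0.16, edgeR adjusted p = 0.0845). Exo1, an exonuclease of mismatch repair, was at 16.7 ± 4.48 CPM in CD40 mAb and 9.18 ± 2.36 CPM in vehicle lymph nodes (0.86 ± 0.24, edgeR adjusted p = 0.0844). Apex2, a nuclease of base excision repair, gave 0.32 ± 0.08 and Xrcc6, the Ku70 subunit of end joining, 0.19 ± 0.06 (edgeR adjusted p = 0.0635 and 0.120).

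Of 22 switch signals and receptors 0 were called against vehicle with either antibody, with medians of 0.04 and -0.01. Tnfrsf17, the plasma cell survival receptor BCMA, was at 3.17 ± 1.06 CPM in CD40 mAb and 1.64 ± 0.20 CPM in vehicle lymph nodes, without overlap (log2 change 0.95 ± 0.25, edgeR adjusted p = 0.0770). With ATOR-4066 it was at 2.79 ± 0.65 CPM (0.76 ± 0.24, edgeR adjusted p = 0.228). Cd40lg, the CD40 ligand of helper T cells, was at 5.45 ± 0.62 CPM in CD40 mAb and 8.31 ± 2.00 CPM in vehicle lymph nodes (-0.61 ± 0.18, edgeR adjusted p = 0.0994). Il13, a type 2 cytokine, was at 0.14 ± 0.05 CPM in CD40 mAb and 0.51 ± 0.39 CPM in vehicle lymph nodes (-1.88 ± 0.59, edgeR adjusted p = 0.106).

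The genes of antibody secretion had the largest median of the 6 lists of B cell and antibody genes. Of 16 members 16 had a positive log2 change against vehicle with each antibody, the medians were 0.81 with ATOR-4066 and 0.78 with CD40 mAb, and 0 of 16 were called with either. Their summed level was 2496 to 4614 CPM in ATOR-4066, 2339 to 3982 CPM in CD40 mAb and 1255 to 2390.1 CPM in vehicle lymph nodes. ATOR-4066 and vehicle did not overlap, and CD40 mAb and vehicle did. Creld2, an endoplasmic reticulum chaperone, was at 190.3 ± 64.3 CPM in ATOR-4066, 215 ± 42.8 CPM in CD40 mAb and 80.1 ± 26.6 CPM in vehicle lymph nodes, with changes of 1.25 ± 0.26 and 1.42 ± 0.28 (edgeR adjusted p = 0.222 and 0.0514). Derl3, which helps remove misfolded proteins from that compartment, gave 1.49 ± 0.33 and 1.35 ± 0.34 (edgeR adjusted p = 0.222 and 0.0720). Fkbp11, a folding factor of secretory cells, gave 1.31 ± 0.34 with ATOR-4066, and Ell2, an elongation factor that favors the secreted heavy chain form, 1.03 ± 0.25 with CD40 mAb (edgeR adjusted p = 0.222 and 0.0651).

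Receptors for antibodies and the light chains outside the set gave 0 calls. Of 10 antibody receptor and transport genes, 9 had a negative log2 change in ATOR-4066 against vehicle (median -0.48) and 5 in CD40 mAb against vehicle (median -0.05). Fcgrt, the neonatal Fc receptor that recycles IgG, was at 35.0 ± 9.73 CPM in ATOR-4066, 35.3 ± 9.04 CPM in CD40 mAb and 56.0 ± 10.9 CPM in vehicle lymph nodes, and vehicle overlapped neither (log2 changes -0.68 ± 0.23 and -0.67 ± 0.24, edgeR adjusted p = 0.231 and 0.137). Of the lambda and surrogate light chain genes 5 of 8 passed the filter, with medians of -0.15 and 0.02, and 2 and 3 of the 5 had a positive change. Vpreb3, a chaperone of the B cell receptor, was at 12.99 ± 3.00 CPM in CD40 mAb and 19.8 ± 4.19 CPM in vehicle lymph nodes (-0.61 ± 0.22, edgeR adjusted p = 0.140).

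Over the 13 lymph node libraries, which share treatments, the genes other than immunoglobulin and J chain genes whose log2 level ran most like that of Ighm were Cxcr3, a chemokine receptor of activated lymphocytes (Pearson r = 0.94), Ccne2, cyclin E2 (0.92), and Vipas39, a vesicle sorting factor (0.91), of 18442 genes compared. For Ighg1 they were Slpi, a secreted protease inhibitor (0.94), Arpp21 (0.92) and Reln, an extracellular matrix protein (0.89). For Jchain they were Eef1akmt3, a lysine methyltransferase (0.96), Ttc41 (0.95) and Ankrd55 (0.95).

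In whole tumor immunoglobulin genes together held 0.00388 to 0.0552 percent of counts. All 10 genes of the set passed the filter, and 0 were called in ATOR-4066 against vehicle (1 unadjusted, 0 with DESeq2 and limma voom). Of 18454 genes 1.32 percent were called there (243, and 0 to 158 with 1 library left out), and 4552 had an unadjusted p under 0.05. In CD40 mAb against vehicle 0 of 10 were called (0 unadjusted, 0 with DESeq2), beside 0 percent of all genes (2205 unadjusted, 26 with DESeq2). ATOR-4066 against CD40 mAb gave 0 of 10 (0 unadjusted, 0 with DESeq2), beside 0.0325 percent of all genes (1879 unadjusted). Ighm had 28.5, 44.7, 42.8 and 30.1 CPM in ATOR-4066 tumors, 54.8, 48.7, 107, 16.8 and 127 CPM in CD40 mAb tumors, and 99.0, 37.6, 48.03 and 53.6 CPM in vehicle tumors, so the groups overlapped. Its log2 change was -0.71 ± 0.49 against vehicle and -0.96 ± 0.47 against CD40 mAb for ATOR-4066 (edgeR adjusted p = 0.389 and 0.516). With the library labelled tumor ATOR-4066 3, at 2509 CPM of Ighm, these became 3.16 and 2.93.

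A few tumors carried most of the IgG and light chain RNA. Ighg1 was at 2.37, 0.463, 98.4 and 57.5 CPM in ATOR-4066 tumors, 2.11, 0.332, 6.76, 3.00 and 67.6 CPM in CD40 mAb tumors and 103, 0.920, 1.02 and 0.403 CPM in vehicle tumors. The high libraries were ATOR-4066 4 and 5, CD40 mAb 5 and vehicle 1, so each treatment had at least 1. CD40 mAb 5 also stood apart in other cell types, with marker sums of 1537 CPM for T cells, against 45.5 to 455 CPM in the other 12 tumors, 13064 CPM for myeloid cells, against 3389.7 to 8381 CPM, and 352 CPM for tumor epithelium, against 4.08 to 94.0 CPM, and their part was not tested. Igkc was at 114 and 73.3 CPM in the first pair, 125 CPM in CD40 mAb 5 and 138 CPM in vehicle 1, against 3.23 to 78.4 CPM in the other 9 tumors. Ighg3, at 0.154 to 4.62 CPM in ATOR-4066, 0.129 to 1.90 CPM in CD40 mAb and 0.040 to 0.538 CPM in vehicle tumors, gave log2 changes of 2.70 ± 1.18 and 2.03 ± 1.13 against vehicle (edgeR adjusted p = 0.180 and 0.431). Ighg2c gave 1.78 ± 1.12 for ATOR-4066 against vehicle and 1.69 ± 1.04 against CD40 mAb (edgeR adjusted p = 0.341 and 0.606). Ighd was at 0.849 to 6.28 CPM in ATOR-4066, 0.485 to 7.43 CPM in CD40 mAb and 0.902 to 29.7 CPM in vehicle tumors. Its changes against vehicle, -1.51 ± 1.28 and -1.39 ± 1.19, became 1.51 and 1.60 without vehicle 1, so vehicle 1 set their direction. B cell markers summed to 102 to 372 CPM in ATOR-4066, 83.04 to 369 CPM in CD40 mAb and 218 to 399.5 CPM in vehicle tumors, and their part was not tested.

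The heavy chain shares in tumor rested on 1233 to 17679 counts, with Wilson intervals of up to ± 2.67 points. Switched classes held 49.4, 32.0, 79.0 and 72.6 percent in ATOR-4066, 18.04, 10.8, 35.1, 33.7 and 54.5 percent in CD40 mAb and 56.1, 38.5, 7.98 and 19.3 percent in vehicle tumors. The groups overlapped, and 0 of 24 class tests passed (smallest adjusted p = 0.218, exact permutation test, 3 unadjusted under 0.05). The IgG2b share was 7.11 ± 1.20 percent in ATOR-4066 and 3.22 ± 2.07 percent in vehicle tumors (SD, n = 4 each), without overlap, at the smallest exact p the design allows, 0.0286 (adjusted p = 0.218).

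**Figure D3:**
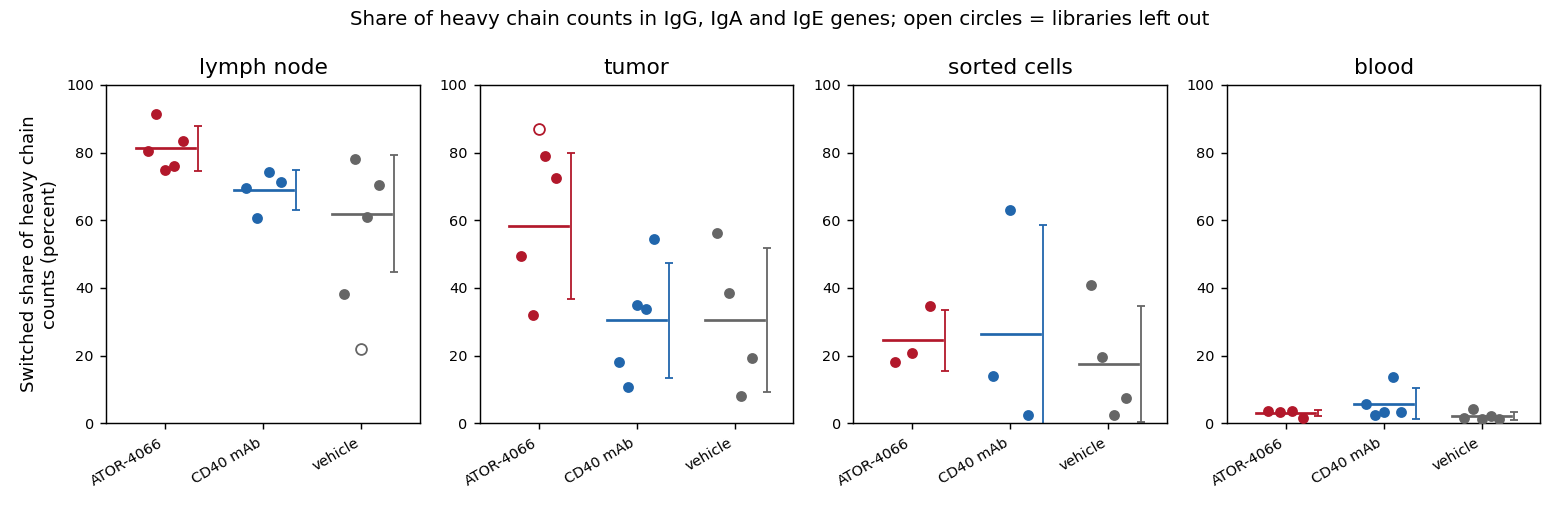
Share of heavy chain counts in the switched classes (percent) in each library, by material and treatment, with the mean as a line and the SD as a bar; open circles are the 2 libraries left out. ATOR-4066 lymph nodes sit at 74.8 to 91.5 percent, above CD40 mAb lymph nodes at 60.6 to 74.3 percent by a small margin. Blood stays at 1.25 to 13.8 percent. Shares are of counts not scaled to exon length.

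In sorted CD45+Ly6G- tumor cells, a gate that holds leukocytes other than neutrophils, IgM was the leading class in most libraries. Ighm had 136, 423 and 155 CPM in ATOR-4066, 382, 192 and 101 CPM in CD40 mAb and 234, 215, 159 and 278 CPM in vehicle cells, with overlap of all groups. Ighm counts per Cd79a count were 30.4 to 41.4 in ATOR-4066 6 and 10, 3.86 in ATOR-4066 9, 79.0 to 349 in CD40 mAb and 68.1 to 107 in vehicle cells. In blood the same ratio was 2.54 to 3.12 in all 14 libraries. Igkc counts per Ighm count were 0.0533 to 0.991 in sorted cells, 0.0672 to 2.67 in tumor, 0.434 to 0.555 in blood and 1.31 to 10.2 in lymph node. In tumor the Ighm to Cd79a ratio was 3.84 to 80.03. Over the sum of all 15 B cell markers the materials overlapped: Ighm was 0.2496 to 1.26 times that sum in sorted cells, 0.115 to 0.660 times in tumor, 0.402 to 0.510 times in blood and 0.379 to 1.23 times in lymph node. The difference of either ratio between materials was not tested, and the libraries also differ in cell makeup: myeloid markers summed to 1678 to 23171 CPM in sorted cells and 2533 to 4234 CPM in lymph node.

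**Figure D4:**
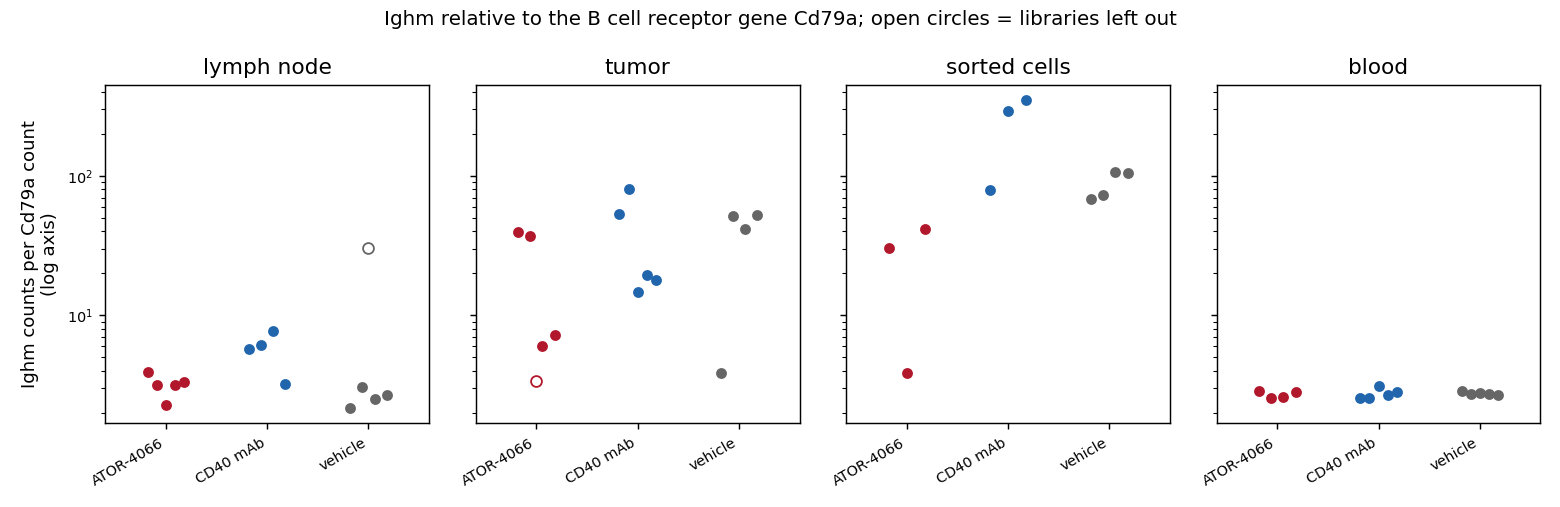
Ighm counts per Cd79a count in each library (log axis), by material and treatment; open circles are the 2 libraries left out. Blood lies at 2.54 to 3.12 in all treatments and lymph node at 2.17 to 7.70, while most tumor and sorted cell libraries lie above 10.

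ATOR-4066 9 stood apart among the sorted libraries. It had 124 CPM of Ighd and 29.7 CPM of Ighe, against 0.522 to 7.21 CPM and 0 to 0.392 CPM in the other 9, and its B cell marker sum was 899 CPM, against 252 to 637 CPM. Its T cell markers summed to 5888 CPM, against 418 to 3658 CPM, and its myeloid markers to 1678 CPM, against 7385 to 23171 CPM. Their part was not tested. The Ighd change of ATOR-4066 against vehicle, 2.86 ± 1.20 (edgeR adjusted p = 0.145), became -1.24 without ATOR-4066 9. Of the 9 genes that passed the filter in sorted cells (all but Ighe), 0 were called in ATOR-4066 against vehicle (2 unadjusted, 0 with DESeq2). Of 16667 genes 11.9 percent were called there (4840 unadjusted). In CD40 mAb against vehicle 0 were called (2 unadjusted, 2 with DESeq2), beside 1.09 percent of all genes (3163 unadjusted).

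In ATOR-4066 against CD40 mAb 1 of 9 was called in sorted cells (3 unadjusted, 2 with DESeq2, 0 with limma voom), beside 8.23 percent of all genes (1372, and 105 to 2422 with 1 library left out, 4519 unadjusted). The called gene was Ighg3, which had 0.641, 1.22 and 0.208 CPM in ATOR-4066 cells and 0 counts in all 3 CD40 mAb libraries, beside 0.528, 0.784, 0.023 and 0.104 CPM in vehicle cells. The ATOR-4066 libraries had 9 to 51 counts, and their mean was at least 8.78-fold higher than a floor of 3 counts per CD40 mAb library (edgeR adjusted p = 0.0484). The call was lost without any 1 of the 3 CD40 mAb libraries and without ATOR-4066 6 or 9. Ighg1 behaved alike, with 1.80, 70.9 and 13.5 CPM in ATOR-4066 and 0.024, 0 and 0 CPM in CD40 mAb cells (edgeR adjusted p = 0.0775), but vehicle cells ranged from 0.021 to 40.5 CPM. T cell markers differed between the same groups, with sums of 2561 to 5888 CPM in ATOR-4066 and 418 to 906 CPM in CD40 mAb cells, and myeloid markers ran the other way, at 1678 to 7397 CPM and 13542 to 23171 CPM. Their part in the Ighg3 and Ighg1 values was not tested.

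Igha was uneven among the sorted cells, at 2.81, 37.5 and 57.3 CPM in ATOR-4066, 61.3, 252 and 0.145 CPM in CD40 mAb and 161, 11.1, 3.82 and 22.2 CPM in vehicle cells. Single libraries carried single IgG classes: Ighg2b was at 23.1 CPM in ATOR-4066 6, against 0.046 to 2.41 CPM in the other 9, and Ighg2c at 77.1 CPM in CD40 mAb 7, against 0 to 12.3 CPM. ATOR-4066 6 also had an erythroid gene sum of 5871 CPM, against 33.6 to 358 CPM in the other 9, whose part was not tested. Of the heavy chain counts, switched classes held 18.2, 20.7 and 34.8 percent in ATOR-4066, 14.0, 63.0 and 2.45 percent in CD40 mAb and 40.9, 19.7, 2.45 and 7.37 percent in vehicle cells. Of the 24 class tests 0 passed (exact permutation test, 0 unadjusted under 0.05), and with 3 libraries against 4 or 3 the smallest exact p is 0.0571 or 0.100. Ighe had 0 counts in 8 of the 10 libraries, which allows a share of at most 0.0835 percent at the lowest depth of 3592 heavy chain counts.

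In blood, unswitched B cell transcripts were lower in CD40 mAb mice. Ighm fell to 178, 94.6, 114, 76.0 and 84.9 CPM in CD40 mAb blood, against 201, 235, 216, 186 and 231 CPM in vehicle blood, with no overlap. The log2 change was -0.96 ± 0.23 (SE, edgeR adjusted p = 0.00414). Ighd fell to 65.3, 31.6, 38.7, 24.7 and 33.3 CPM, against 72.9, 77.0, 76.1, 70.45 and 91.6 CPM in vehicle blood, again without overlap (-1.001 ± 0.22, edgeR adjusted p = 0.00250). Igkc fell to 92.5, 46.1, 50.7, 42.2 and 38.5 CPM, against 94.0, 110.3, 93.6, 84.7 and 106.1 CPM in vehicle blood (-0.85 ± 0.22, edgeR adjusted p = 0.00723). CD40 mAb 1 was the highest treated library in each of the 3 and lay among the vehicle values for Igkc. These were 3 of the 8 genes that passed the filter, beside 34.6 percent of 12184 genes called in the comparison, 2710 higher and 1509 lower. The share called in the set was thus near that of all genes when direction is set aside. Ighg2c and Ighe did not pass it.

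The fall went with that of other B cell genes. Of 15 B cell markers 14 were called lower in CD40 mAb blood and 0 higher, beside 1509 lower and 2710 higher of all 12184 genes. The markers had a median log2 change of -0.88, beside -0.05 over all genes. Their sum was 176 to 442 CPM in CD40 mAb and 453 to 552 CPM in vehicle blood. All 4 lambda and surrogate light chain genes tested fell too. Relative to Cd79a the groups overlapped: Ighm counts per Cd79a count were 2.54 to 3.12 in CD40 mAb and 2.68 to 2.86 in vehicle blood, and Igkc counts 1.24 to 1.496 and 1.21 to 1.34. With libraries scaled to B cell markers the Ighm, Ighd and Igkc changes were -0.07, -0.11 and 0.035 and none of the 3 was called. Under that scaling 5 others were called higher in CD40 mAb blood, Ighg1 (1.57), Ighg2b (0.94), Ighg3 (0.98), Igha (1.42) and Jchain (1.55), where 9234 of all genes were called. Neutrophil and erythroid genes ran the other way, 8 of 8 and 7 of 7 called higher, and their part in the values was not tested. With haemoglobin genes kept out of the library size the Ighm change was -0.99. As a share of all counts, haemoglobin included, immunoglobulin genes held 0.00659 to 0.0449 percent in CD40 mAb and 0.0819 to 0.116 percent in vehicle blood.

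**Figure D5:**
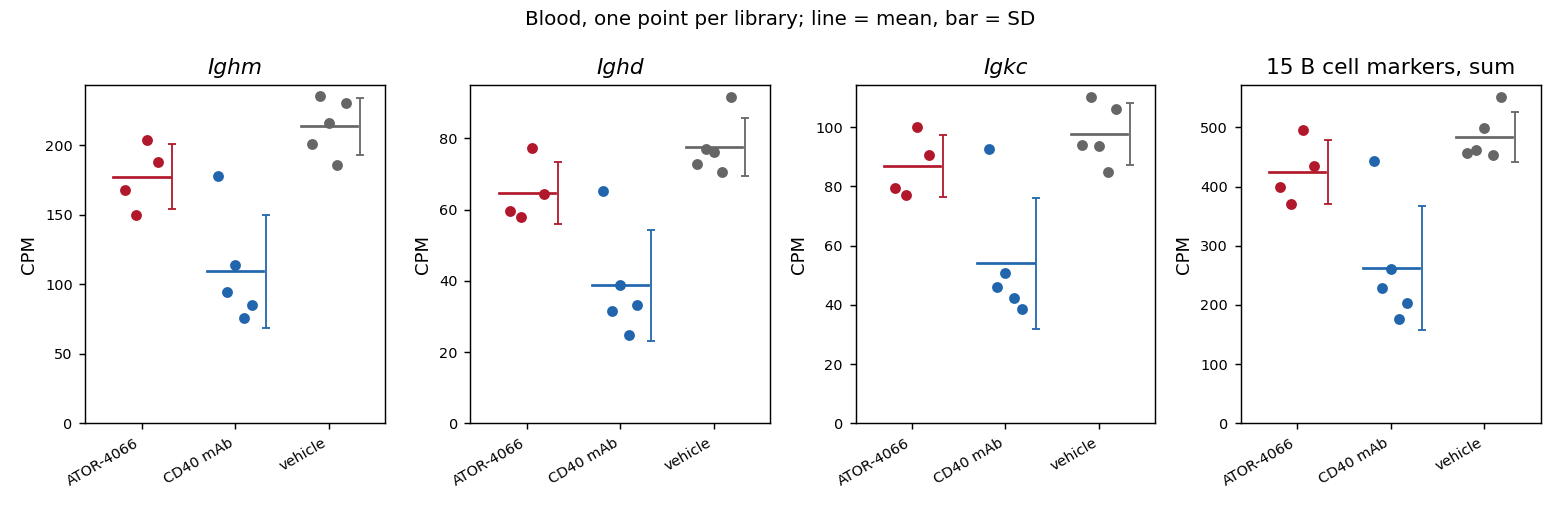
Ighm, Ighd and Igkc levels and the sum of 15 B cell markers in each blood library (CPM), by treatment, with the mean as a line and the SD as a bar. Of the 5 CD40 mAb libraries 4 lie well below vehicle in all panels and CD40 mAb 1 lies close to it, with 178 CPM of Ighm.

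For Ighm, Ighd and Igkc, ATOR-4066 blood lay between the other groups on average. Ighm had 168, 150.0, 204 and 188 CPM there and Ighd 59.5, 57.9, 77.2 and 64.5 CPM. Against vehicle 0 of 8 genes were called (1 unadjusted, 0 with DESeq2, 1 with limma voom), beside 0.435 percent of all genes (1831 unadjusted). The changes were -0.27 ± 0.24 for Ighm and -0.26 ± 0.23 for Ighd (edgeR adjusted p = 0.646 and 0.640). As a share of all counts, haemoglobin included, immunoglobulin genes held 0.0233 to 0.0535 percent in ATOR-4066 blood, below the 0.0819 to 0.116 percent of vehicle blood without overlap. Against CD40 mAb, 1 of 8 was called (3 unadjusted, 3 with DESeq2 and with limma voom), beside 13.1 percent of all genes (3209 unadjusted). Ighd rose by 0.74 ± 0.23 (edgeR adjusted p = 0.0438), with 1 of 4 ATOR-4066 libraries above all CD40 mAb ones, and its call was lost without any 1 library of either group other than CD40 mAb 1. Ighm gave 0.70 ± 0.24 and Igkc 0.69 ± 0.23 (edgeR adjusted p = 0.0672 and 0.0634). Of the 15 B cell markers 6 were called higher and 0 lower in ATOR-4066 than in CD40 mAb blood, beside 281 higher and 1312 lower of all genes.

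Blood had the lowest group means of the switched share, though single libraries overlapped those of sorted cells and tumor. The difference between materials was not tested. Ighm held 69.8 to 73.3 percent of heavy chain counts in ATOR-4066, 65.1 to 73.0 percent in CD40 mAb and 70.7 to 73.0 percent in vehicle blood, and Ighd 25.1 to 26.9, 21.1 to 27.2 and 23.7 to 28.1 percent. Switched classes held 3.57, 3.26, 3.66 and 1.54 percent in ATOR-4066, 5.74, 2.58, 3.43, 13.8 and 3.39 percent in CD40 mAb and 1.68, 4.16, 1.28, 2.25 and 1.25 percent in vehicle blood. Most of that was IgA, with 12.2 of the 13.8 percent in CD40 mAb 4. Heavy chain counts were 1412 to 26127 a library, and intervals were up to ± 2.48 points. In the class tests 0 of 24 passed (smallest adjusted p = 0.286, exact permutation test, 4 unadjusted under 0.05). The IgG1 share was 0.290 ± 0.277 percent in ATOR-4066 and 0.0623 ± 0.0387 percent in vehicle blood (SD, n = 4 and 5), without overlap (exact p = 0.0159, adjusted p = 0.286). At the level of the gene, Ighg1 was at 0.337 to 1.51 CPM in ATOR-4066 and 0.053 to 0.388 CPM in vehicle blood, with overlap, and a log2 change of 1.77 ± 0.58 (edgeR adjusted p = 0.177). Ighe had 0 counts in 9 of the 14 libraries.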

How the data were processed

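RNA libraries were prepared with poly(A) selection and a stranded kit, per the labels' protocols, and aligned with STAR 5.1 to GRCm38, per the submitters' processing notes. The authors deposited 1 table of estimated counts per gene, of which 11.0 percent of the values are not whole; they were rounded. Samples were grouped by their titles and labels. The genes and lists were chosen with earlier results of these data known. One lymph node and one tumor library that went against their labels were left out.

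Counts were tested with edgeR 4.0.16 (quasi-likelihood, robust; R 4.3.3) after a filter on low counts (minimum 10, total 15) and TMM scaling, with the 3 treatments of a material in 1 fit and Benjamini-Hochberg adjustment over all genes. Shares of heavy chain counts were compared by exact permutation tests (scipy 1.17.1), and intervals are Wilson intervals that cover counting error only. A log2 change of one of the 10 genes is printed where it exceeded its standard error. Of each list of other genes, names were taken from the 4 with the smallest p in each lymph node comparison with vehicle. DESeq2 1.42.0, limma voom (limma 3.58.1), other scalings and filters, a replicate block and leaving out each library were tried as alternatives. The fits were tested on simulated lymph node and sorted cell counts with the same spread for every gene. Many antibody genes varied widely between libraries, so that test does not show how the fits do for them. Values of 2 genes of these lists are not reported here.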

Additional observations from a re-analysis of the deposited data

Results flagged for a closer look

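Of 124 groups of 4 or 5 values examined, 21 had a sample far from the others by Dixon's test, which chance flags in about 1 in 20 groups. In lymph node, ATOR-4066 2 had 25213 CPM of Igkc, CD40 mAb 5 an Ighg2b share of 6.10 percent of heavy chain counts and vehicle 1 an Ighe share of 4.48 percent. In tumor, ATOR-4066 4 had 49.8 CPM of Ighg2c, CD40 mAb 5 had 67.6 CPM of Ighg1 and 4.57 CPM of Ighe, and vehicle 1 had 29.7 CPM of Ighd, 103 CPM of Ighg1, 15.7 CPM of Ighg2b, 3.63 CPM of Ighe, 138 CPM of Igkc and 22.2 CPM of Jchain. In sorted cells, vehicle 7 had 40.5 CPM of Ighg1 and 0.392 CPM of Ighe, and vehicle 6 had 4.03 CPM of Ighg2c and 160.7 CPM of Igha. In blood, ATOR-4066 3 had 1.51 CPM of Ighg1, CD40 mAb 1 had 92.5 CPM of Igkc, CD40 mAb 4 had 0.331 CPM of Ighe (4 counts), vehicle 2 had 12.1 CPM of Igha and vehicle 4 had 0.0121 CPM of Ighe. The last is 1 count against 0 in the other 4 libraries, so the test had to mark it. The same holds for Ighe in sorted vehicle 7 (12 counts) and Ighg2c in sorted vehicle 6 (191 counts), each against 0 in the rest of the group.

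The Ighm change of CD40 mAb against vehicle had opposite signs in 2 materials, with no overlap of the groups in either: 1.04 in lymph node and -0.96 in blood (log2). The lymph node change was not called (edgeR adjusted p = 0.0540). The blood change was called, but not with libraries scaled to B cell markers, and its size depends on the scaling. The difference between the materials was not tested. The library labelled tumor ATOR-4066 3, which was not used, had 4.80 percent of its counts in immunoglobulin genes.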

How the results depend on the processing

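Of 884 alternative values of the 52 log2 changes, 821 kept direction and side of the threshold, 21 lost and 23 gained a call and 19 changed sign. Members called (edgeR in brackets) were, with DESeq2, 1 (0) in lymph node for ATOR-4066 against vehicle, 2 (0) for CD40 mAb against vehicle and 1 (0) between the antibodies, 2 (0) in sorted cells for CD40 mAb against vehicle and 2 (1) between the antibodies, and 3 (1) in blood between the antibodies. With limma voom they were 1 (0) in lymph node for CD40 mAb against vehicle, 0 (1) in sorted cells between the antibodies, 1 (0) in blood for ATOR-4066 against vehicle and 3 (1) between the antibodies. Without a filter they were 1 in lymph node for CD40 mAb against vehicle, likewise 1 with library sizes without immunoglobulin genes, and 2 in blood between the antibodies. Scaled to B cell markers they were 0 between the antibodies in sorted cells and blood, and 5 in blood for CD40 mAb against vehicle. With only the 2 groups in the fit they were 0 between the antibodies in sorted cells and blood. The cause was not tested.

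Signs turned for Ighd in sorted cells, ATOR-4066 against vehicle (-0.73 with limma voom, -0.17 scaled to B cell markers), Ighg2c in sorted cells between the antibodies (1.23 with limma voom) and Igkc in blood, CD40 mAb against vehicle (0.035 scaled to B cell markers). With the left out libraries, Ighd in lymph node, CD40 mAb against vehicle, was 0.13. In tumor Ighm was 3.16 and Ighd 3.96 for ATOR-4066 against vehicle, and Ighm was 2.93 and Igha 0.50 against CD40 mAb. The switched share in lymph node then differed by 27.4 points for ATOR-4066 and 14.99 points for CD40 mAb against vehicle.

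Same-numbered libraries of different treatments come from different mice and did not deviate together, so the numbers do not pair the treatments. Within a treatment, lymph node, tumor and blood titles share numbers, so libraries of these materials may come from the same mice. That was not tested, and the materials are not taken as independent. With a replicate block, members called were 1 in sorted cells for ATOR-4066 against vehicle and 0 in blood between the antibodies, Ighe in lymph node, CD40 mAb against vehicle, was -0.053, and between the antibodies Igha in tumor was 0.29 and Ighg2c in sorted cells 4.94.

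Leaving out 1 library at a time, members called ranged from 0 to 1 in lymph node for CD40 mAb against vehicle (1 without CD40 mAb 5), from 0 to 1 in sorted cells for ATOR-4066 against vehicle (1 without vehicle 7), from 0 to 2 between the antibodies there, and from 0 to 3 between them in blood (3 without CD40 mAb 1). Ighe in lymph node, CD40 mAb against vehicle, ranged from -0.10 (without CD40 mAb 5) to 1.40. In tumor, Ighd ranged from -2.22 to 1.51 for ATOR-4066 and from -2.01 to 1.60 for CD40 mAb against vehicle (both highest without vehicle 1), and Igha between the antibodies from -1.24 to 0.28 (without CD40 mAb 5). In sorted cells, Ighd for ATOR-4066 against vehicle ranged from -1.24 (without ATOR-4066 9) to 3.40, and Ighg2c from -1.30 (without CD40 mAb 7) to 12.99 for CD40 mAb against vehicle (without vehicle 6, where the other 3 vehicle libraries had 0 counts, so the fitted value is no fold) and from -3.71 to 3.71 between the antibodies. The switched share in lymph node differed by 11.5 (without vehicle 1) to 24.7 points for ATOR-4066 and by -0.913 (without vehicle 1) to 12.3 points for CD40 mAb against vehicle.

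Over the alternatives other than leaving out a library, the number of all genes called ran from 0 to 503 (0 as tested) for ATOR-4066 against vehicle, 0 to 1833 (12) for CD40 mAb against vehicle and 0 to 152 (3) between the antibodies in lymph node. In tumor they ran from 0 to 4946 (243), 0 to 26 (0) and 0 to 857 (6) in the same order, in sorted cells from 28 to 4484 (1977), 14 to 1526 (182) and 3 to 3012 (1372), and in blood from 0 to 1062 (53), 3723 to 9234 (4219) and 2 to 6784 (1593). With 1 library left out at a time they ran, in the same order, from 0 to 17, 0 to 18 and 0 to 4 in lymph node, 0 to 158, 0 to 0 and 1 to 314 in tumor, 627 to 2525, 2 to 272 and 105 to 2422 in sorted cells, and 0 to 106, 3434 to 5433 and 914 to 3026 in blood. Depth limits the shares in tumor and blood most, where 1 library had as few as 1233 and 1412 heavy chain counts.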
